A study of Homo sapiens and Mus musculus with 7 samples.

Results

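HepG2 is a human liver cancer cell line that still makes many of the proteins of hepatocytes. It is compared here in 2 stable forms, on 1 expression array each: HepG2 cells in which FAS was knocked down by the short hairpin RNA shRNA6, and HepG2 cells labelled PLKO control. PLKO is a lentiviral vector used to express hairpins. The genotype label calls the first a knock-out, while its description calls it a stable knock-down by a hairpin, and the second name is used here because FAS RNA was still measured. The labels do not say whether either form is 1 clone or a pool of cells. The series holds 7 arrays, of which 5 are human, and the other 3 human arrays come from the ovarian cancer line HeyA8. These are HeyA8 cells with FAS shRNA4, with FAS shRNA6 and with the PLKO control, on 1 array each. Genes were taken when a probe set of theirs had a signal above 400 on at least 1 of the 2 HepG2 arrays. This left 14179 of 54613 probe sets and 7926 of 19775 genes with 1 symbol, of which 7497 were above 400 on both arrays.

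Each gene is given by its most intense such probe set. Differences are log2 ratios of signal + 12.6, shRNA6 over control, where the added constant is the 25th percentile of the human values, and they understate the differences of dim genes. With 1 array per group no difference has a replicate check, none is tested, and counts rest on size alone, at a threshold of 2-fold. At the limit of 400, a probe set of DENND4C was just inside with signals of 360.1 with shRNA6 and 400.4 in the control, and one of TMEM254 just outside with 399.7 and 387 in the same order.

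The RNA carried the markers of a liver cell. All 16 hepatocyte defining genes that the annotation pairs with a probe set, among them ALB, APOA1, TF and SERPINA1, were above 400 on at least 1 array. Their summed signal was 315622 with shRNA6 and 310357 in the control. By another choice of probe sets, with 14 of the genes above 400 with shRNA6 and 15 in the control, the sums were 297634 and 292617. By that choice the HeyA8 control had 308. None of 10 endothelial and none of 10 fibroblast and stellate cell markers reached 400 on either array. Of 10 blood cell markers 1 did, lysozyme (LYZ), with signals of 20618 and 20047 in the same order. Both deposited arrays had a 2% trimmed mean of 500.1, and they had medians of 63.5 with shRNA6 and 58.7 in the control.

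Fas, the product of FAS, is a cell surface receptor that recruits the adaptor FADD and caspase-8 when it binds Fas ligand, and hepatocytes are among the cells that it can kill. It can also signal without killing, through kinases and transcription factors. Hepatocytes carry out the breakdown of amino acids, the methylation cycle, the oxidation of fatty acids, the synthesis of cholesterol and bile acids and the modification of drugs, and they secrete most plasma proteins. The extracellular matrix consists of collagens, adhesive glycoproteins and proteoglycans, together with the enzymes that crosslink, sulfate or cut them. In liver most of it comes from stellate cells and fibroblasts, but hepatoma lines make part of it themselves.

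FAS was lower on the knockdown array by each probe set above 400. Its most intense probe set had signals of 631 with shRNA6 and 1087 in the control (log2 ratio -0.77). The next had 453 and 920.4 in the same order, a somewhat larger difference. A pair of FAS probe sets marked as cross-hybridising gave -1.14 and -0.76. The signal of the most intense probe set with shRNA6 was thus 0.581 times that of the control, so FAS RNA was reduced and not absent. In bulk RNA such as this, fewer cells of a type and less RNA per cell cannot be told apart.

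Most genes had nearly equal signals on both arrays. Across the 7926 genes the log2 signals correlated with a Pearson r of 0.98, as a description over genes. The median log2 ratio was -0.01 with an SD over genes of 0.27, and 94.7% of the genes lay within 0.5 of 0. At least 2-fold higher with shRNA6 were 30 genes, 0.379% of those measured, and at least 2-fold lower were 40, or 0.505%. With arrays scaled to equal medians the split was 20 higher and 50 lower. Of the 30 higher genes 18 were above 400 with shRNA6 alone, and of the 40 lower genes 24 were above 400 in the control alone, so these had to differ to be kept by the brighter array. The plot of signals of the 7926 genes names the members of the metabolism, secreted protein and matrix lists that were at least 2-fold apart. These were 6 of 190 metabolism genes and 3 of 61 secreted protein genes, all higher. Of 78 matrix genes 8 were lower and 2 higher. Most of the 30 higher and 40 lower genes belong to none of these lists.

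**Figure D1:**
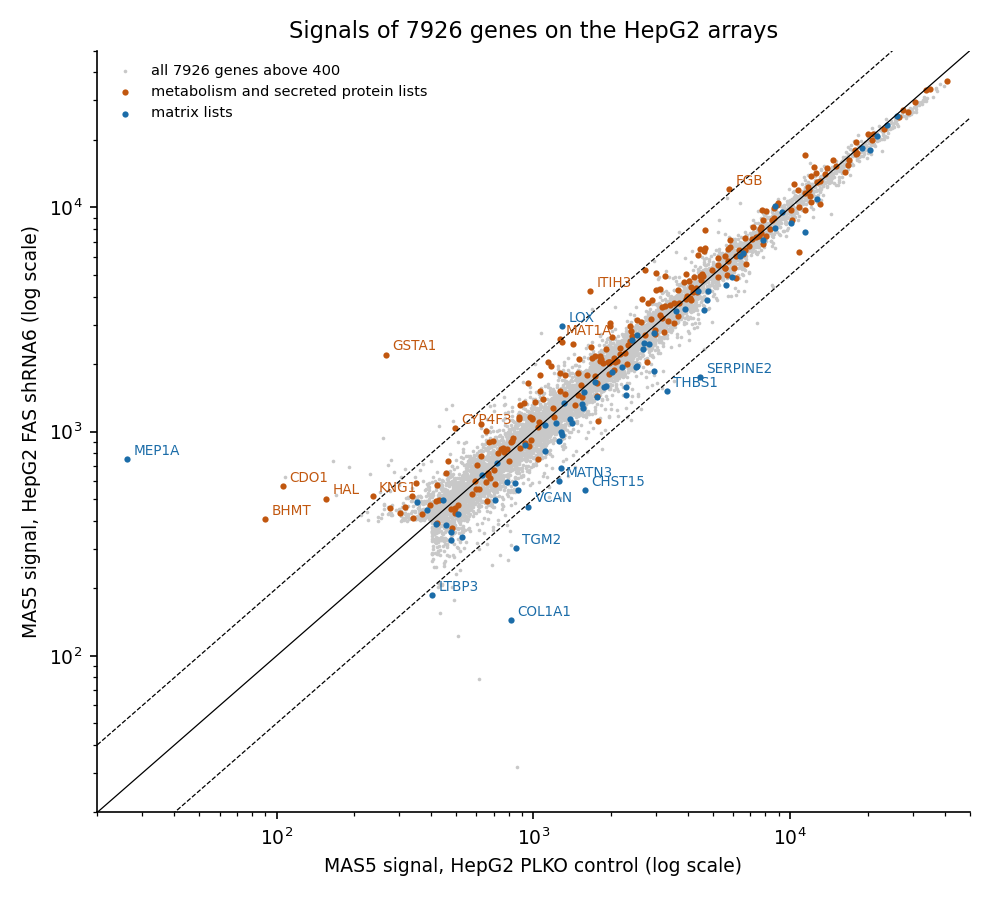
MAS5 signal of each of the 7926 genes with FAS shRNA6 (vertical, log scale) against the PLKO control (horizontal, log scale), 1 array each. The solid line marks equal signals and the dashed lines 2-fold differences; named points are members of the metabolism, secreted protein (orange) and matrix (blue) lists that lie at least 2-fold from equality, such as GSTA1 with 2207 against 267 and COL1A1 with 145 against 820.4.

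Of the 10 lists of hepatocyte metabolism, which together hold 318 genes, 190 genes were above 400. Their median log2 ratio was 0.11, beside -0.01 over all genes. Of the 190, 130 were above 0 and 60 below, or 31.6% below 0 beside 53.1% of all 7926 genes. Scaled to equal medians, which shifted the median of all genes by -0.12, the metabolism genes had a median of -0.01 with 90 above 0 and 99 below, and of 0.12 relative to all genes. The values of lists and genes near 0 are therefore read beside the median of all genes, since under that scaling the lists of the urea cycle, amino acid breakdown, gluconeogenesis and phase I enzymes also had medians below 0, and between 0.08 and 0.13 above that of all genes. At least 2-fold higher were 6 of the 190 genes and at least 2-fold lower 0, beside 30 (0.379%) and 40 (0.505%) of all 7926 genes. GSTA1, HAL, BHMT and CDO1 among the 6 were above 400 with shRNA6 alone. Glycolysis and the synthesis of serine, asparagine and proline were not among the 10 lists, and with them added 133 of 214 genes were above 0 and the median was 0.08, an alternative chosen after seeing the data. The lists were not alike, as the plot of the gene lists shows. Genes of fatty acid oxidation, cholesterol synthesis and bile acids had the higher medians, while synthesis of fatty acids and the methionine group had medians near 0.

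**Figure D2:**
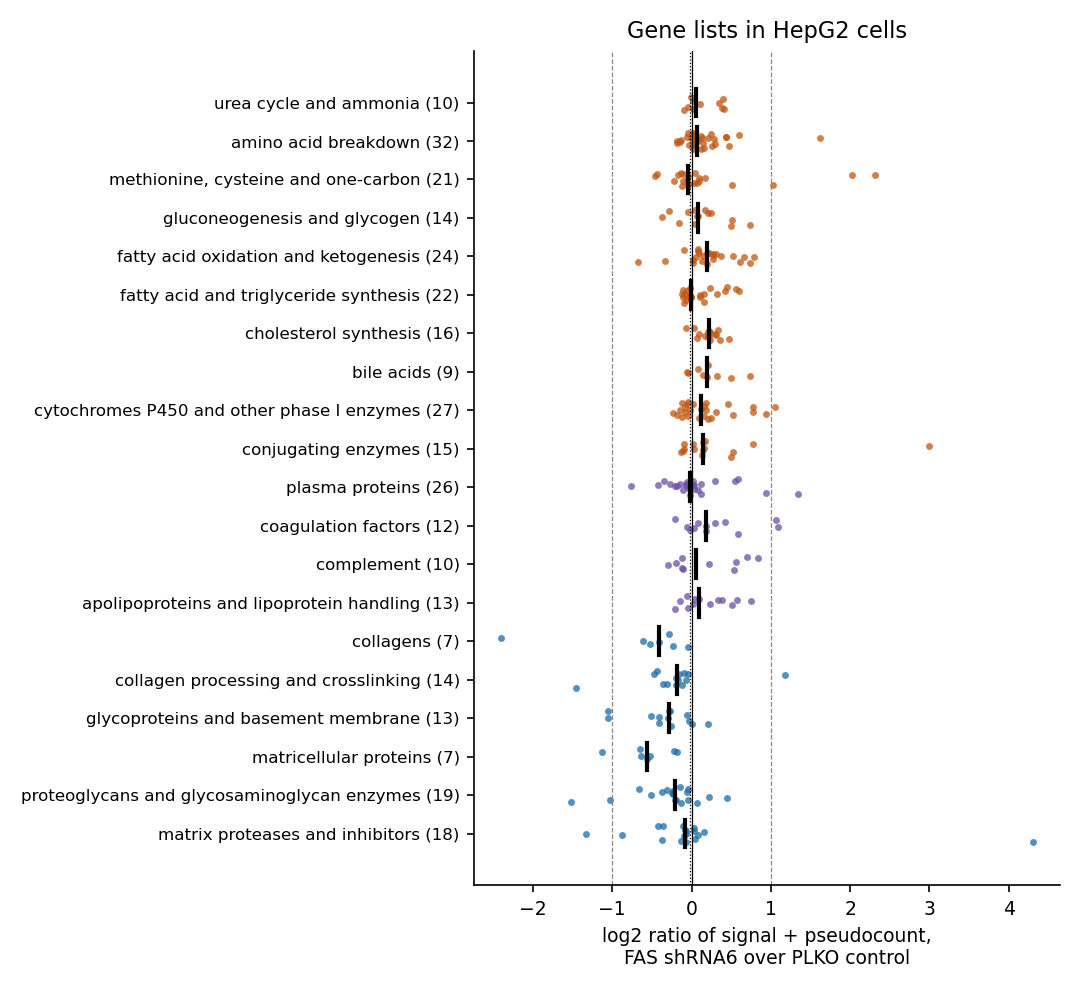
Log2 ratio of signal plus pseudocount, FAS shRNA6 over PLKO control, for each gene above 400 in 10 metabolism (orange), 4 secreted protein (purple) and 6 matrix (blue) lists, with the number of genes in brackets. Black bars are list medians, the dotted line is the median of all 7926 genes and the dashed lines mark 2-fold; the 6 matrix medians lie between -0.56 and -0.08.

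Large differences lay in the metabolism of methionine and cysteine. MAT1A, the liver form of the enzyme that makes S-adenosylmethionine, had a signal of 2593 with shRNA6 and 1263 in the control, which gives a log2 ratio of 1.03. BHMT, which remethylates homocysteine with betaine as the donor, had 407 with shRNA6 and 90.4 in the control (log2 ratio 2.03). CDO1, cysteine dioxygenase, which commits cysteine to taurine and sulfate, had 573 with shRNA6 and 106 in the control (log2 ratio 2.31). Each of these genes was thus at least 2-fold higher on the knockdown array, and BHMT and CDO1 passed the limit of 400 through that array alone. A further CDO1 probe set, dimmer than 400, gave 1.07. BHMT2, the paralog of BHMT, had 2390.2 with shRNA6 and 1681 in the control, with log2 ratios of 0.50 and 0.53 by its 2 probe sets. Other enzymes of homocysteine did not share this direction. CBS, cystathionine beta-synthase, had 751 with shRNA6 and 1039.7 in the control, which gives a log2 ratio of -0.46. MTR, the folate-dependent methionine synthase, had 2045 and 2773 in the same order (log2 ratio -0.44). Also below 0 were MAT2A, the form of the S-adenosylmethionine enzyme outside liver (-0.17), and the folate enzyme MTHFD2 (-0.22). Over the list, 10 of 21 genes were above 0 and the median was -0.05, so the large differences lay in a few members.

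Other amino acid enzymes were mostly above 0, at small sizes. In the list of amino acid breakdown 23 of 32 genes were above 0 and the median was 0.07. HAL, histidine ammonia-lyase, the first enzyme of histidine breakdown, had a signal of 503 with shRNA6 and 156 in the control (log2 ratio 1.61), and its further probe set, dimmer than 400, gave 0.48. KYNU, kynureninase of the tryptophan pathway, had 4957 with shRNA6 and 3266 in the control, and its 3 probe sets gave between 0.60 and 0.75. Enzymes of branched-chain and proline breakdown followed at smaller sizes, with ALDH6A1 at 0.48, MMUT at 0.43 and ALDH4A1 at 0.43. In the urea cycle 7 of 10 genes were above 0. CPS1, which starts the cycle, was at 0.39, ASS1 at 0.41 and ASL at 0.38, while the transporters SLC25A13 and SLC25A15 were at -0.04 and -0.01. ASNS, asparagine synthetase, lay on the other side, with 4066 with shRNA6 and 6165 in the control, which gives a log2 ratio of -0.60.

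Of the enzymes that act on drugs and other foreign compounds, the phase I enzymes, which oxidise or reduce them, had a median of 0.11 (0.13 relative to all genes with equal medians) and the conjugating enzymes one of 0.14. GSTA1, an alpha class glutathione transferase, had a signal of 2207 with shRNA6 and 267 in the control (log2 ratio 2.99). GSTA1 has near-identical paralogs, GSTA2 among them, which its probes may not separate, and a dimmer probe set gave 0.17. Among the 27 phase I enzymes, 16 were above 0 and 1 was at least 2-fold higher. This was CYP4F3, a fatty acid and leukotriene hydroxylase, with 1034 with shRNA6 and 494 in the control (log2 ratio 1.05). CES2, a carboxylesterase, had 2501 with shRNA6 and 1295 in the control, which gives a log2 ratio of 0.94. FMO5, a flavin monooxygenase, had 2452 and 1431 in the same order, and its 2 probe sets gave 0.77 and 1.01. The reductase AKR1B10 was at 0.77, the glucuronosyltransferase UGT2A3 at 0.78 and the steroid sulfotransferase SULT2A1 at 0.52 and 0.61. Other members stayed near equality, among them NQO1 at 0.02 and AKR1C3 at -0.06.

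Lipid genes split by pathway. In fatty acid oxidation and ketogenesis 21 of 24 genes were above 0, with a median of 0.19. CROT, the peroxisomal carnitine octanoyltransferase, had a signal of 1080.2 with shRNA6 and 623 in the control (log2 ratio 0.78). CPT1A, which admits long-chain fatty acids to mitochondria, had 738 with shRNA6 and 463 in the control (log2 ratio 0.66). BDH1, which makes the ketone body 3-hydroxybutyrate, was at 0.73 and the peroxisomal oxidase ACOX2 at 0.61. The clear exception was ACSL1, a ligase that activates fatty acids, with 1114 with shRNA6 and 1781 in the control. Its 2 probe sets gave -0.67 and -0.63. In cholesterol synthesis 15 of 16 genes were above 0, with a median of 0.22 and no value beyond 0.48 by the most intense probe set. Beside the members of this pathway with the largest ratios, LSS and HMGCS1, there were MSMO1 with 12730.1 with shRNA6 and 10303 in the control (0.30) and FDPS with 10210.0 and 8881 (0.20). Fatty acid and triglyceride synthesis had a median of -0.01, with the central enzymes ACLY, ACACA and SCD at -0.08, -0.02 and -0.06, FASN at 0.31, and the lipid droplet protein CIDEB at 0.60. Bile acid genes had a median of 0.19 with 7 of 9 above 0. AKR1D1, the steroid 5-beta-reductase of bile acid synthesis, had 1785 with shRNA6 and 1063 in the control, which gives a log2 ratio of 0.74, and the FGF19 co-receptor KLB was at 0.50 and 0.71.

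In sugar metabolism the fructose enzyme KHK, ketohexokinase, had a signal of 1958 with shRNA6 and 1168 in the control (log2 ratio 0.74). TKFC, which takes up fructose carbon after it, was at 0.51 and PGM1, which links glycogen and glucose phosphate, at 0.50. Of 14 genes of gluconeogenesis and glycogen 10 were above 0. Glycolysis showed the opposite sign at small size: 17 of 18 genes were below 0, with a median of -0.16. The glucose transporter SLC2A3 had 4037 with shRNA6 and 5742 in the control, with -0.51 and -0.56 by its 2 probe sets. The enzymes GAPDH, LDHA and ENO1 were at -0.14, -0.14 and -0.16. The 19 ribosomal protein genes measured were all below 0 with a median of -0.15, and that median was -0.03 after quantile normalization, which gave a median of -0.09 for glycolysis.

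**Figure D3:**
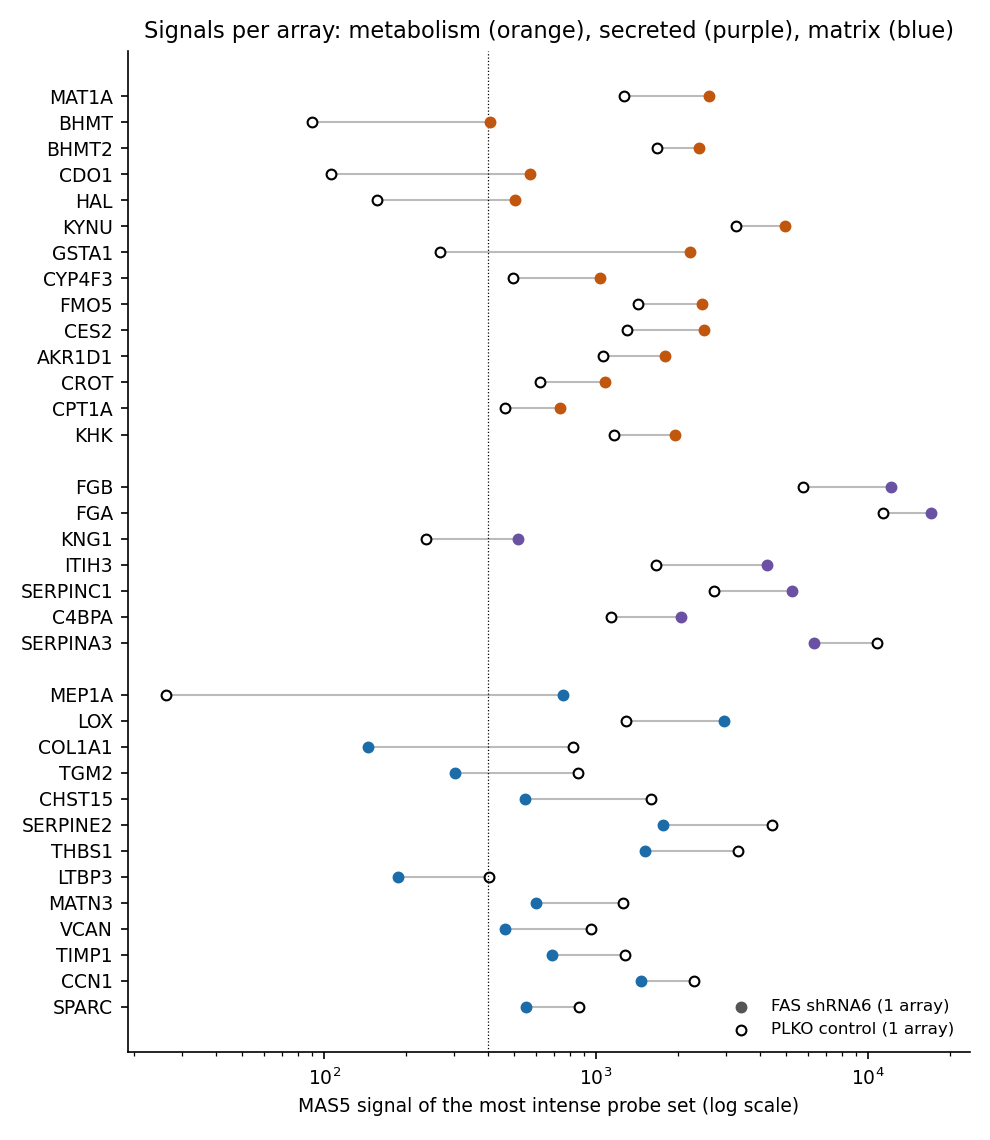
MAS5 signal (log scale) of the most intense probe set of 34 genes with FAS shRNA6 (filled) and in the PLKO control (open), 1 array each, with the 400 limit dotted. The genes are a selection from the lists. All metabolism genes shown (orange) lie to the right of their control with shRNA6. The secreted proteins shown (purple) do so too, except SERPINA3 with 6344 against 10793. Of the matrix genes shown (blue) MEP1A and LOX lie to the right and the other 11 to the left. Members below 0 such as ACSL1, CBS, MTR and HPX are not shown. Over the lists, 60 of 190 metabolism, 26 of 61 secreted protein and 66 of 78 matrix genes were below 0.

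Secreted proteins of the liver lay on both sides of 0. Over 4 lists, 35 of 61 genes above 400 were above 0 and 26 below, with a median of 0.03 that was -0.08 with equal medians (0.05 relative to all genes). At least 2-fold higher were 3 genes and lower 0, beside 0.379% and 0.505% of all genes. After quantile normalization 43 were above 0 and 18 below, with a median of 0.09. Without probe sets marked _x_at or _s_at 26 of 41 were above 0, with a median of 0.11. The fibrinogen chains differed among themselves. FGB had a signal of 12105 with shRNA6 and 5792 in the control, and its 2 probe sets gave 1.06 and 0.94. FGA had 17126 with shRNA6 and 11383 in the control, with 0.59 and 0.77 by its 2 probe sets, while FGG, with 21192 and 20066, was at 0.08. KNG1, the kininogen from which bradykinin is cut, had 517 with shRNA6 and 236 in the control (log2 ratio 1.09), and was above 400 with shRNA6 alone. ITIH3, a chain of the inter-alpha-inhibitors that bind hyaluronan, had 4252 with shRNA6 and 1665 in the control, which gives a log2 ratio of 1.35. Antithrombin, SERPINC1, had 5244 with shRNA6 and 2723 in the control, with 0.94 and 0.95 by its 2 probe sets. C4BPA and C4BPB, the chains of the complement regulator C4b-binding protein, were at 0.84 and 0.56. The acute phase inhibitor SERPINA3 was the member furthest below 0, with 6344 with shRNA6 and 10793 in the control (log2 ratio -0.77). Haptoglobin, HP, was at -0.27 and the heme carrier HPX at -0.42 and -0.60, so SERPINA3, HP and HPX lay on the other side of 0 from FGA and FGB. Most apolipoproteins were near equality, with APOA1 at 0.02, APOB at -0.05 and APOA2 at -0.05, but APOC3 was at 0.75 and MTTP, which loads lipid onto APOB, at 0.57.

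Genes of the matrix lay mostly below 0. Of 204 genes in 6 lists, 78 were above 400 on a HepG2 array, and 66 of them, 84.6%, were below 0, beside 53.1% of all genes. Their median was -0.23, and -0.22 relative to all genes with equal medians. At least 2-fold lower were 8 of the 78 and at least 2-fold higher 2, beside 40 (0.505%) and 30 (0.379%) of all 7926 genes. COL1A1, TGM2 and LTBP3 were above 400 in the control alone, and MEP1A with shRNA6 alone. With no limit on signal, 125 of the 197 on the array were below 0, or 63.5% beside 49.0% of all genes, with a median of -0.10. Of the 67 that were above 400 on both arrays 58 were below 0, with a median of -0.21. Of 10 markers of fibroblasts and stellate cells 7 were below the array median on both HepG2 arrays, with a summed signal of 440 with shRNA6 and 498 in the control and none above 400. A list of 10 genes that mark HeyA8 or mesenchymal lines had a summed signal of 13289 with shRNA6 and 18638 in the control, most of it from TGFBI. Its members below 400 did not share a direction. VIM, vimentin, was at 26.1 and 87.2, and CAV1, caveolin-1, at 41.9 and 4.6 in the same order. The HeyA8 control had 128679 for the same list, with 9 of 10 above 400 against 3 of 10 on each HepG2 array. The part of these markers in the matrix values was not tested.

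All 7 collagen genes above 400 were below 0, with a median of -0.41. COL1A1, a chain of fibrillar type I collagen, had a signal of 145 with shRNA6 and 820.4 in the control (log2 ratio -2.40). Its other probe sets were at 96.4 or less in the control and did not share a sign, at -2.85, -0.79, 0.38 and, for one marked as cross-hybridising, 0.59. COL16A1, a collagen that associates with fibrils, had 339 with shRNA6 and 525 in the control, which gives a log2 ratio of -0.61. COL9A3 was at -0.53, and the basement membrane chains COL4A6, COL18A1 and COL4A5 were at -0.41, -0.28 and -0.24. COL27A1 was near equality, with 4232 with shRNA6 and 4358 in the control (log2 ratio -0.04).

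Enzymes that modify and join collagen were below 0 in 13 of 14 cases, with a median of -0.18. TGM2, a transglutaminase that crosslinks proteins, had 302 with shRNA6 and 854 in the control (log2 ratio -1.46), while its probe sets marked as cross-hybridising gave -0.68 and -0.49. The prolyl hydroxylase P4HA2 was at -0.37 and -0.77 by its 2 probe sets, and the lysyl hydroxylases PLOD1, PLOD2 and PLOD3 were at -0.31, -0.17 and -0.12. LOX, lysyl oxidase, which starts the crosslinking of collagen and elastin, was the one gene on the other side. LOX had 2943 with shRNA6 and 1293 in the control, which gives a log2 ratio of 1.18, its other probe set above 400 gave 1.14 and a dimmer one 0.16. Its relative LOXL4 was at -0.44.

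Among adhesive glycoproteins and basement membrane genes 11 of 13 were below 0, with a median of -0.29. LTBP3, which holds latent TGF-beta in the matrix, had 187 with shRNA6 and 403 in the control (log2 ratio -1.06), although a probe set marked as cross-hybridising gave 0.12. MATN3, a matrilin best known from cartilage, had 599.5 with shRNA6 and 1258 in the control (log2 ratio -1.05). FBLN1, fibulin-1, was at -0.51 and -0.57, and the laminin chains LAMB1, LAMC1 and LAMA5 at -0.41, -0.29 and -0.26. Fibronectin, FN1, which links cells to collagen, had 25455 with shRNA6 and 26004 in the control, which gives a log2 ratio of -0.03, so it did not follow the others. LAMB2 was at 0.21 and perlecan, HSPG2, at 0.00.

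The matricellular proteins, which sit in the matrix and signal to cells, had the lowest median of any list, -0.56, with 7 of 7 genes below 0. THBS1, thrombospondin-1, which binds collagen and integrins and can activate TGF-beta, had 1511 with shRNA6 and 3316 in the control (log2 ratio -1.13). CCN1, a heparin-binding ligand of integrins, had 1459 with shRNA6 and 2293 in the control, with -0.65 and -0.50 by its 2 probe sets. SPARC, osteonectin, had 551 and 867 in the same order (log2 ratio -0.64). TGFBI was at -0.56 and SMOC1 at -0.53. Nearest to equality in this list were the remaining members, with CCN2 at -0.22 and osteopontin, SPP1, at -0.19.

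Proteoglycans and the enzymes that build their sugar chains were below 0 in 16 of 19 cases, with a median of -0.21. CHST15, which adds a further sulfate to chondroitin sulfate, had 548 with shRNA6 and 1591 in the control, which gives a log2 ratio of -1.52. Versican, VCAN, a large chondroitin sulfate proteoglycan, had 463 with shRNA6 and 954 in the control (log2 ratio -1.03). SULF2, an extracellular sulfatase that trims heparan sulfate, had 1857 and 2951 in the same order, with -0.66 and -0.77 by its 2 probe sets. A chondroitin sulfotransferase, CHST3, was at -0.51 and -0.10, and syndecan-1, SDC1, at -0.37 and -0.22. The heparan sulfate proteoglycan glypican-3, GPC3, an oncofetal marker of liver cancer, was near equality at -0.04, and GLCE, the epimerase of heparan sulfate, was at 0.45.

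Proteases and their inhibitors were the matrix group nearest to all genes, with a median of -0.08 and 12 of 18 below 0. The inhibitors were among the lower ones. SERPINE2, protease nexin-1, an inhibitor of thrombin and plasminogen activators, had 1758 with shRNA6 and 4445 in the control (log2 ratio -1.33). TIMP1, an inhibitor of matrix metalloproteases, had 688 with shRNA6 and 1277 in the control, which gives a log2 ratio of -0.88. TIMP2 was at -0.37 and -0.74, and the 4 probe sets of TIMP3 lay between -0.67 and -0.18. MEP1A, the alpha subunit of the metalloprotease meprin, had 754 with shRNA6 and 26.1 in the control by its only probe set. The control signal was below the median of its array (58.7), and against that median the knockdown signal was at least 12.8-fold higher. The membrane proteases ADAM9, ADAM10 and ADAM17 were at -0.07, -0.07 and -0.07.

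Receptors that hold cells to the matrix had a median of -0.16, with 9 of 15 below 0. The focal adhesion genes PXN, paxillin, and PARVA, parvin, were both at -0.69 and above 400 in the control alone. The integrin chains ITGB5, ITGA2, ITGAV and ITGB1 were at -0.36, -0.30, -0.23 and -0.11. CD36, a scavenger receptor that takes up fatty acids and binds thrombospondin, stood on the other side. It had a signal of 709.9 with shRNA6 and 272 in the control (log2 ratio 1.35). Mesenchymal and cytoskeletal genes had a median of -0.22 with 9 of 11 below 0. TAGLN, an actin-binding protein, was at -0.73 and -0.84, while NT5E, the ectoenzyme CD73, which makes adenosine, had 647 with shRNA6 and 230.5 in the control and 3 probe sets at 1.44, 1.67 and 0.98.

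Probe sets of 1 gene read different stretches of its transcripts on the same array and from the same RNA, so they check the reading of a gene and not the difference between cultures. Of the 7926 genes 2775 had 2 or more probe sets above 400. Those marked as cross-hybridising were left out here unless a gene had no other, as in SULT1A1, so some such genes are counted. All probe sets of a gene had one sign in 1674 of these genes, or 60.3%. The range between the lowest and highest log2 ratio of a gene had a median of 0.16 and a 90th percentile of 0.44, and it was above 1 in 7 genes. Across the 2775 genes the most intense and the second probe set correlated with a Pearson r of 0.58 and a Spearman rho of 0.47, as a description. The SD of the difference between both readings was 0.22, the same as the SD of the most intense reading itself, so differences of this size are no larger than the disagreement between probe sets. The plot of paired probe sets shows the cloud around 0 and a tail along the diagonal.

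**Figure D4:**
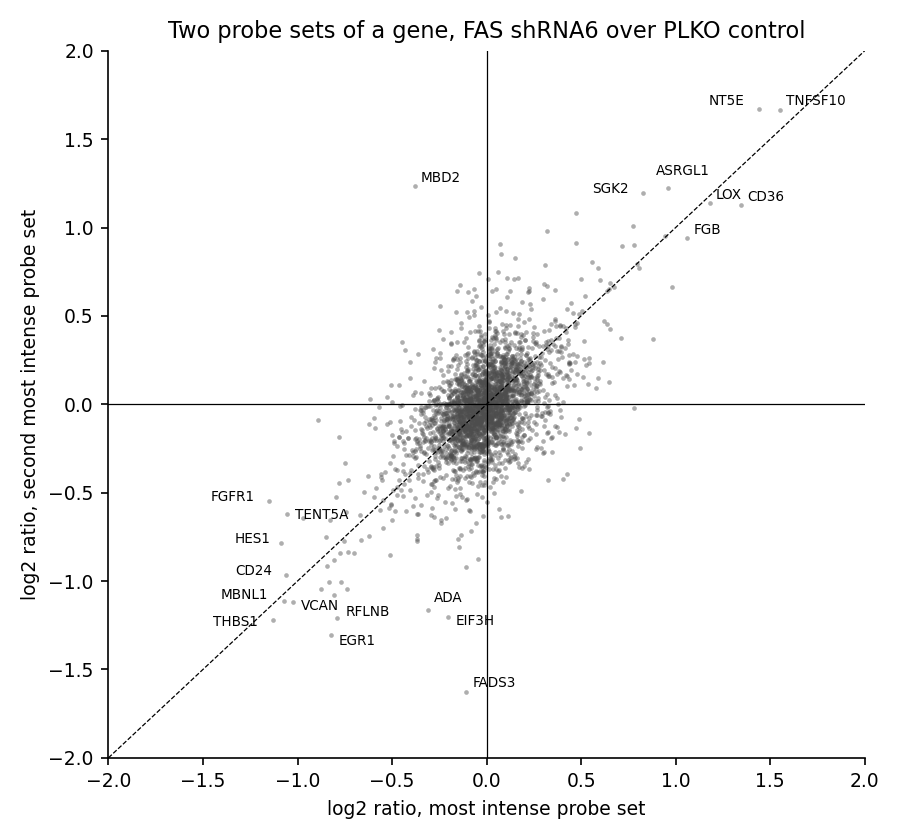
Log2 ratio (FAS shRNA6 over PLKO control) of the second most intense probe set against that of the most intense one, for each of 2775 genes with at least 2 probe sets above 400. The dashed line marks equal ratios; Pearson r is 0.58, and genes named at the ends include TNFSF10 and NT5E above and THBS1 and VCAN below, while MBD2, ADA, EIF3H and FADS3 lie away from the line.

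Agreement in sign was more frequent at larger differences. Where the most intense probe set was within 0.25 of 0, the second had the same sign in 1455 of 2298 genes, or 63.3%. Between 0.25 and 0.5 this was so in 305 of 376 genes (81.1%), and between 0.5 and 0.75 in 58 of 62 (93.5%). Between 0.75 and 1 it was so in 26 of 27 genes (96.3%), and from 1 upward in 12 of 12, where the second probe set had a median size of 1.11. Of the 29 genes with any probe set at least 2-fold away from equality, 27 had one sign throughout. This check covers few of the large differences, because 25 of the 30 higher and 33 of the 40 lower genes had a single probe set above 400. For 27 of the 70 there was at least 1 further probe set between the array median and 400 that was not marked as cross-hybridising. In 26 of these all such probe sets had the sign of the brightest. The exception was N4BP2L1, at -1.03 with a dimmer probe set at 0.19. Left out of this count are probe sets marked as cross-hybridising, of which those given for LTBP3, COL1A1 and FGFR1 had the other sign.

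Among genes with 1 probe set above 400, several with large differences belong to no metabolism or matrix list. LINC02381, a long noncoding RNA, had 31.9 with shRNA6 and 863 in the control. The knockdown signal was below the median of its array (63.5), and against that median the control signal was at least 13.6-fold higher. SIRPA, the receptor for CD47, had 79.0 with shRNA6 and 613 in the control (log2 ratio -2.77), and a dimmer probe set gave -0.82. Also lower were ASB4, an ankyrin repeat protein of the SOCS box family (-1.94), the centrosomal protein TACC1 (-1.53) and PRIMA1, the membrane anchor of acetylcholinesterase (-1.41). On the higher side DKK4, a secreted inhibitor of Wnt signalling, had 625 with shRNA6 and 108 in the control (log2 ratio 2.41). TNNI2, the troponin I of fast muscle, was at 2.07 and UNC93A at 1.79. ENPP2, autotaxin, which makes lysophosphatidic acid, was at 1.81 with a dimmer probe set at 1.01.

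In 5 genes every probe set above 400 was at least 2-fold away from equality. TNFSF10, the death ligand TRAIL and a relative of Fas ligand, had 521 and 426 with shRNA6 by its 2 probe sets, against 169.7 and 125 in the control, log2 ratios of 1.55 and 1.67. LOX had 2943 and 2197 with shRNA6, against 1293 and 991 in the control. CD36 had 709.9, 538 and 472 with shRNA6, against 272, 239 and 211 in the control, log2 ratios of 1.35, 1.13 and 1.12. These 3 genes were higher on the knockdown array by each reading above 400, and a dimmer probe set of LOX gave 0.16. Each of the probe sets given for TNFSF10 and CD36 passed 400 with shRNA6 alone. They had to differ in this direction to be kept, so their common sign is no support for the difference. THBS1 had 1511, 603 and 277 with shRNA6, against 3316, 1420.5 and 576 in the control, log2 ratios of -1.13, -1.22 and -1.03. VCAN had 463 and 203 with shRNA6, against 954 and 455 in the control, log2 ratios of -1.03 and -1.12. Both matrix genes were lower by each reading, and dimmer probe sets above the array median gave -0.76 for THBS1 and -0.94 and -0.84 for VCAN. The THBS1 probe set with 576 in the control and the VCAN one with 455 passed 400 in the control alone.

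The promoters of these 5 genes are shown because every probe set above 400 agreed on a 2-fold difference in them. Each is the 250 bases before the start of the gene in RefSeq on GRCh38.p14, read 5′ to 3′ on the strand of the gene, and all 5 had an entry. Capitals mark matches to the motifs searched on both strands.
TNFSF10, chr3:172523431-172523680, minus strand: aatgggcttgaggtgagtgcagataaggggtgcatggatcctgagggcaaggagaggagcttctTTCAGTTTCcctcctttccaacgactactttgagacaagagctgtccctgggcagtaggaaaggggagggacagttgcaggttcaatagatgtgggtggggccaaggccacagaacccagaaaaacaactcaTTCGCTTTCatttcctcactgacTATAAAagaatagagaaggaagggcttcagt
LOX, chr5:122078260-122078509, minus strand: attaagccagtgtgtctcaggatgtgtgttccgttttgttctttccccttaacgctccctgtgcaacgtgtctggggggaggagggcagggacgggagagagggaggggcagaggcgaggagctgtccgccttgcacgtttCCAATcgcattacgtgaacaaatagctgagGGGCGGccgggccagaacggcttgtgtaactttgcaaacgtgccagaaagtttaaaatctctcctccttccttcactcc
CD36, chr7:80601957-80602206, plus strand: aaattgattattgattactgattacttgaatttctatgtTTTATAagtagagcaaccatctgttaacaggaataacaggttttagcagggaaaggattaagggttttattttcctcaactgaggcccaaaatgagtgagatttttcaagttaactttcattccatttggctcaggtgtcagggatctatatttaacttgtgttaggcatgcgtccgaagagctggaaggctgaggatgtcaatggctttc
THBS1, chr15:39580829-39581078, plus strand: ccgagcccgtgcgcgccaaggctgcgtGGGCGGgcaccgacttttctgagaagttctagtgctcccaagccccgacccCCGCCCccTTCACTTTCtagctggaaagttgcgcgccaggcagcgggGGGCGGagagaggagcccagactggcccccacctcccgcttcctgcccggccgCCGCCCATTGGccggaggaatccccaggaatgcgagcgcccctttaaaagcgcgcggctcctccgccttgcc
VCAN, chr5:83471494-83471743, plus strand: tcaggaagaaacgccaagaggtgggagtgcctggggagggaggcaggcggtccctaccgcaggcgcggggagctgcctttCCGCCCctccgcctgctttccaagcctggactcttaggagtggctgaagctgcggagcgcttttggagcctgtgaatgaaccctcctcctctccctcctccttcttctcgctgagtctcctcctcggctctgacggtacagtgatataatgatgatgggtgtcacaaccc

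The motifs searched were AP-1 (TGANTCA), the cAMP response element (TGACGTCA), the CArG box by name, a core of the interferon-stimulated response element (GAAANNGAA), a part of the HNF1 site (GTTAATNAT), HNF4 (CAAAGTCCA), the TATA box (TATAAA), the GC box (GGGCGG) and CCAAT. The interferon motif matched in TNFSF10, from 186 to 178 and from 54 to 46 bases before the start, and in THBS1 from 164 to 156, and 6.88% of the 35116 promoters in the table hold it. The letters of the TATA box matched in TNFSF10 from 31 to 26 bases before the start, on the strand of the gene. In CD36 they matched from 211 to 206 on the opposite strand, and 10.7% of promoters hold a match. THBS1 held 4 GC boxes and a CCAAT box that adjoins the last of them, LOX 1 of each, and VCAN 1 GC box, motifs found in 42.6% (GC box) and 32.0% (CCAAT) of promoters. No matches overlapped in these stretches. The other 5 motifs were found in between 0.325% (HNF4) and 6.57% (AP-1) of promoters and in none of the 5 shown. A match describes the letters alone.

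Other genes agreed across probe sets at somewhat smaller size. On the higher side ASRGL1, an asparaginase, had 5738 with shRNA6 and 2944 in the control, with 0.96 and 1.23 by its 2 probe sets. The kinase SGK2 was at 0.82 and 1.20, ribokinase (RBKS) at 0.80 and 0.79, the secreted phospholipase-like PLA2G12B at 0.78 and 0.90, and the plasma glutathione peroxidase GPX3 at 0.81 and 0.77. On the lower side CD24, a surface glycoprotein of progenitor and tumour cells, had 1684 with shRNA6 and 3530.0 in the control. Its 3 probe sets gave -1.06, -0.96 and -1.75, but CD24 has near-identical copies in the genome that its probes may read as well. MBNL1, a splicing regulator, had 1128 with shRNA6 and 2389 in the control and 3 probe sets between -1.11 and -0.92, with a dimmer one at -0.19. HES1, a target of Notch signalling, was at -1.09 and -0.79, and the immediate-early factor EGR1 at -0.82 and -1.30, with a probe set below 400 at -0.34. The transcription factor ZFHX3 (-0.88 and -1.04), the calcium channel ITPR3 (-0.84 and -0.92), the actin-binding protein COTL1 (-0.81 and -0.88) and the endocytic adaptor DAB2 (-0.81 and -1.08) were lower by both readings. NSMAF, an adaptor of the TNF receptor that activates sphingomyelinase, was at -0.83 and -1.01, and the filamin-binding RFLNB at -0.79 and -1.21.

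**Figure D5:**
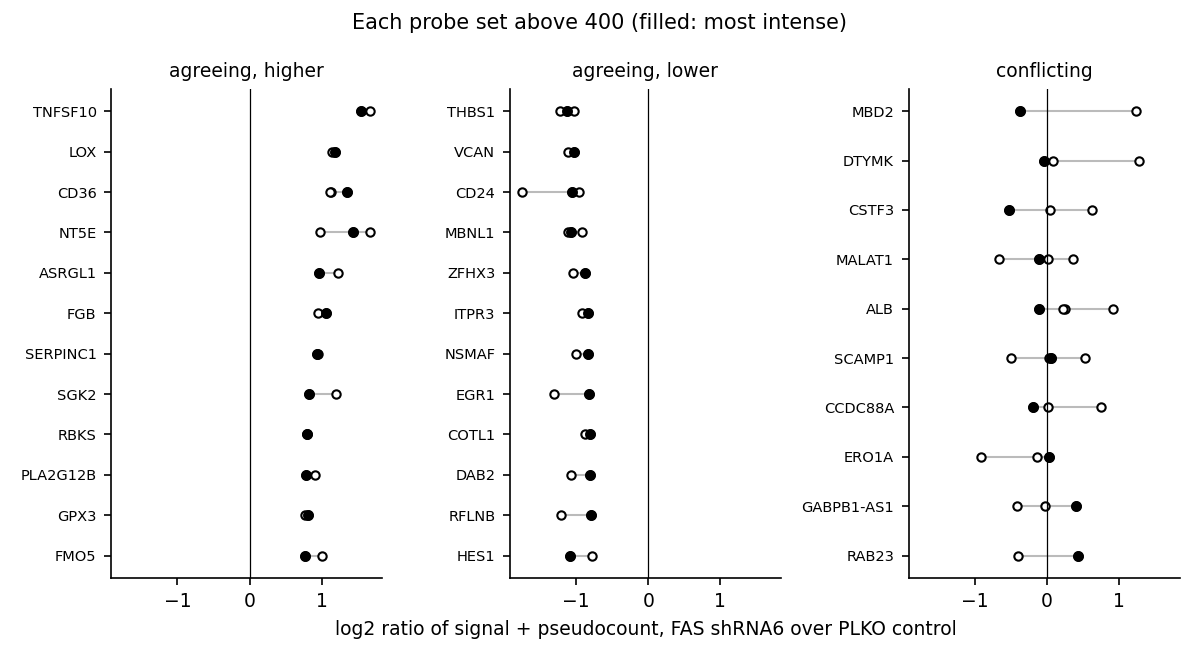
Log2 ratio (FAS shRNA6 over PLKO control) of every probe set above 400 for the genes with the largest agreeing differences, higher (left) and lower (middle), and for the 10 genes with the widest conflict (right). Filled points are the most intense probe set; in the left and middle panels all points of a gene lie on one side of 0, while MBD2 in the right panel spans -0.38 to 1.24.

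The 10 genes with the widest conflict between probe sets include a nuclear protein, an enzyme and albumin. MBD2, a protein that binds methylated DNA, had 2131 with shRNA6 and 2776 in the control by its most intense probe set (log2 ratio -0.38). Its other probe set above 400 had 555 and 228 in the same order, which gives a log2 ratio of 1.24. In DTYMK, thymidylate kinase, 2 probe sets gave -0.05 and 0.09, and the other, with 414 with shRNA6 and 164 in the control, gave 1.27. CSTF3, a factor of mRNA 3′ end cleavage, gave -0.53, 0.04 and 0.63 by its 3 probe sets. Albumin, the classical product of the hepatocyte, was itself in conflict. ALB had 26699.7 with shRNA6 and 28770.5 in the control by the probe set that represents it, at -0.11, and its others gave 0.24, 0.23 and 0.91. The remaining conflicts were MALAT1, SCAMP1, CCDC88A, ERO1A, GABPB1-AS1 and RAB23. FADS3, a fatty acid desaturase-like gene, had one sign but unequal sizes, at -0.11 and -1.63; like ADA and EIF3H it is named for its place in the plot of paired probe sets, after its values were seen.

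HeyA8 cells carrying the same hairpin, with their own PLKO control, were measured beside them. Of the 7926 genes 6555 were above 400 in HeyA8 as well, and over these the log2 ratios of HepG2 and HeyA8 shRNA6 correlated with a Pearson r of 0.15 and a Spearman rho of 0.13, as a description. Of the 30 higher genes only 3 were above 400 in HeyA8, and of the 40 lower genes 23. Of these 3, 2 were above 0 in HeyA8 too and 0 were at least 2-fold higher there, as were 2 of the 6555 genes. Of the 23 lower genes, 16 were below 0 in HeyA8 too and 2 were at least 2-fold lower there, among 9 of the 6555 genes that were. They were THBS1, with 307 in HeyA8 shRNA6 and 768 in the HeyA8 control (log2 ratio -1.29), and the AP-1 subunit FOS. FOS had 177 with shRNA6 and 488 in the control in HepG2 (log2 ratio -1.41), and 445 and 1214 in HeyA8, which gives a log2 ratio of -1.42. FOS in HepG2 and THBS1 in HeyA8 were above 400 in the control alone. The 49 matrix genes above 400 in HeyA8 had a median of -0.19 in HepG2 and -0.05 in HeyA8, with 43 and 30 of them below 0. The 113 metabolism genes above 400 in HeyA8 had medians of 0.04 in HepG2 and 0.02 in HeyA8. The share of all 6555 genes below 0 in HeyA8 is not given here, so these counts of signs are not read as agreement between the lines.

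The interaction of cell line and knockdown was fitted gene by gene with limma on the 5 human arrays. The HeyA8 arrays of shRNA4 and shRNA6 served as the knockdown arrays of that line. The fit had 1 residual degree of freedom, so that the spread is that between the HeyA8 hairpins and HepG2 is taken to vary alike. These are different hairpins and not repeats of 1 condition, and HepG2 has shRNA6 alone. The counts of the fit therefore cannot decide whether knockdown acted differently in the lines. Of the 7926 genes 0 passed (0%) at an adjusted p of 0.05, and 212 had an unadjusted p below 0.05. A gene that did not pass is not shown to respond alike in both lines.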

How the data were processed

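RNA of 7 samples was measured on Affymetrix expression arrays, 1 array per sample and group, and the 2 HepG2 arrays are the subject here. Deposited values are linear signal intensities that the authors made with MAS5, per the submitters' processing notes; neither its version nor its settings were given in the sources used here, and no detection calls were used. Of 54675 human probe sets, 62 controls were left out. Platform annotation gave 1 symbol to 41091 probe sets, several to 1801 and none to 11721. Symbols were compared with RefSeq through the gene identifier (41037 matched, 0 updated), and only probe sets with 1 symbol name a gene. For each gene the probe set with the highest mean signal on the HepG2 arrays was used among those above 400 on at least 1 of them. Probe sets marked as cross-hybridising (_x_at) were used only where there was no other (274 genes). The pseudocount was 12.6.

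The members, the 39 gene lists, the rule for named genes, the alternatives and the tests were chosen with earlier results of these data known. Of the list symbols 13 were read through a synonym and 2 could not be resolved. Genes open to naming were FAS, the 12 higher and 12 lower genes with the largest smallest ratio among agreeing genes with several probe sets, the 8 higher and 8 lower with the largest ratio among those with 1 probe set, the 10 with the widest conflict, up to 6 members per list with the largest ratio, and any member of the matrix and metabolism lists. Outside this rule, and chosen after their values were seen or as markers, are GAPDH, LDHA, ENO1, FGG, HP, APOA1, APOA2, APOB, TF, SERPINA1, ITGA2, ITGAV, ITGB1, VIM, CAV1, N4BP2L1, DLK1, AFP, the threshold examples and those said to be so in the text. Precision is limited by the number of arrays.

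The interaction of cell line and knockdown was fitted with limma 3.58.1 in R 4.3.3 (trended prior variance, Benjamini-Hochberg adjustment over 7926 genes). Its p-values rest on the spread between the HeyA8 arrays of shRNA4 and shRNA6, which are different hairpins and not repeats. That spread may hold hairpin and technical differences alike. The fit was tested on simulated data whose variances were drawn from the fit itself, which does not check this. All else ran in Python 3.11.15 (matplotlib 3.10.9, pandas 2.3.3, numpy 2.4.6, scipy 1.17.1). Alternatives were other pseudocounts, arrays scaled to equal medians, quantile normalization, other signal limits, other rules for probe sets and other fold thresholds.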

Additional observations from a re-analysis of the deposited data

How the results depend on the processing

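The counts by size depended most on the signal limit. Beside 30 higher and 40 lower genes, a limit of 200 gave 49 and 66, a limit of 800 gave 14 and 21, a signal above 400 on both arrays gave 12 and 16, and no limit gave 1346 and 1009. At 1.5-fold 122 genes were higher and 154 lower, and at 3-fold 9 and 4. A pseudocount of 50 gave 26 lower genes, and leaving out all probe sets marked _x_at or _s_at gave 24 among the 5435 genes then left. Equal medians shifted the all-gene median by -0.12 and gave 20 higher and 50 lower genes. The share of genes whose probe sets had one sign was 60.3%, and it was 70.4% with equal medians, 55.2% at a limit of 200, 63.2% at 800 and 40.2% with no limit. Except where an alternative changed the genes or the scaling by construction, the cause was not tested. Of the lists, 21 had a median below that of all genes, and between 18 and 23 under the alternatives. Over all lists and alternatives 345 medians stayed within a log2 ratio of 0.1 of their first value, and 60 moved by more. In 2 cases a median of at least 0.1 turned sign. These were the median of cytochromes P450 and other phase I enzymes, at -0.00098 with equal medians (0.13 relative to all genes), and that of integrins and matrix receptors, at 0.0074 with no limit. Adding glycolysis and amino acid synthesis to the metabolism lists, an alternative chosen after seeing the data, gave a median of 0.08 beside 0.11. Of the named genes no ratio of at least 2-fold turned sign under any alternative run, but most of these could hardly turn one. A pseudocount keeps the sign of a probe set, and the shift with equal medians was small beside a 2-fold difference. The 5 higher and 7 lower 2-fold genes with 2 or more probe sets above 400 each had one sign already. The unchanged signs are therefore no check of these differences. The limma test of the difference between cell lines gave 0 genes in every alternative, with between 221 and 465 at an unadjusted p below 0.05. Leaving out an array could not be run, because a group then holds none or the fit has no residual degrees of freedom. No paired analysis was possible because each group holds 1 array. Depth on an array is its signal over background, and genes below 400 on both arrays were not described.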

Other observations

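Liver transcription factors, which set the hepatocyte program, were near all genes, with a median of 0.07 and 13 of 22 above 0. MLXIPL, the carbohydrate response factor, had a signal of 423 with shRNA6 and 213 in the control (log2 ratio 0.95). RXRA, the partner of many nuclear receptors, had 1039.7 with shRNA6 and 627 in the control (log2 ratio 0.72), and the bile acid target NR0B2 was at 0.56. GATA6 was on the other side, with 259.9 with shRNA6 and 447 in the control (log2 ratio -0.76). Oncofetal liver genes had a median of -0.19 with 17 of 21 below 0. Beside CD24, the biliary and progenitor keratin KRT19 had 4524 with shRNA6 and 8521 in the control (log2 ratio -0.91). PROM1 was at -0.89, CAP2 at -0.74 and -1.04, and DLK1 at -0.63, but alpha-fetoprotein (AFP) at -0.02 and the tetraspanin TSPAN8 at 1.02 did not share this direction.

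Immediate-early genes had a median of -0.28 with 13 of 14 below 0, DUSP1, a phosphatase of MAP kinases, among them at -0.71. Interferon-stimulated genes above 400 had a median of -0.02 and no common sign. IFITM3, which restricts virus entry, had 4218 with shRNA6 and 6594 in the control (log2 ratio -0.64), and PSMB8, a subunit of the immunoproteasome, was at 0.59. Cell cycle genes were close to all genes, with a median of -0.06 and 27 of 37 below 0. The inhibitor CDKN1A, p21, was furthest out, with 1262 with shRNA6 and 1901 in the control (log2 ratio -0.59).

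Several signalling genes outside the lists were among those at least 2-fold apart and are named after their values were seen. The growth factor receptor FGFR1 had 512 with shRNA6 and 1152 in the control by its most intense probe set (log2 ratio -1.15). Its other 3 gave -0.55, -0.68 and -0.16, and one marked as cross-hybridising gave 0.16. The ligand of KIT, KITLG, had 507 with shRNA6 and 1273 in the control. The chemokine CXCL8 had 313 with shRNA6 and 821 in the control by a probe set marked as cross-hybridising, and a dimmer one gave -0.78. The steroid dehydrogenase HSD17B2, with 3516 with shRNA6 and 1688 in the control, and the cystine transporter subunit SLC7A9, with 1117 and 486, were higher.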
